A study of Homo sapiens with 5 samples.

Results

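The miR-15/16 family with miR-424 and miR-503 comprises 7 microRNAs, chosen by probe name, among the 734 miRNA probes (654 human, 80 viral) of a NanoString panel: hsa-miR-15a, hsa-miR-15b, hsa-miR-16, hsa-miR-195, hsa-miR-424, hsa-miR-497 and hsa-miR-503. The cells were Caco2, an established line from a human colorectal tumour whose cells polarise in culture as an epithelium does. The cells had been infected and selected to carry a non-target shRNA (NT, n = 2, replicates 1 and 3) or one that targets PLEKHA7, which is found at adherens junctions (shPLEKHA7, n = 3, replicates 1, 2 and 3). The comparison asks how PLEKHA7 depletion affected miRNA levels. Cells of both groups thus carried an shRNA. The study describes independent sets of infections, without saying which replicate came from which set, and a single PLEKHA7 shRNA is described. NT replicate 2 was not analysed here. Titles set the groups here. The source field of shPLEKHA7 replicates 2 and 3 names other PLEKHA genes. PLEKHA7 itself has no probe on the panel, so its depletion was not analysed here.

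A microRNA guides Argonaute proteins to messenger RNAs mainly through its seed, the bases from position 2 to position 8, and lowers the output of the messages it pairs with. The miR-15/16 family is known for restraining the cell cycle and cell survival through targets such as cyclin D1, CDK6 and BCL2. miR-15a and miR-16-1 lie in a region often deleted in chronic lymphocytic leukaemia. miR-424 and miR-503 are made from a separate cluster on the X chromosome and are known for targeting the phosphatase CDC25A.

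The mature sequences are shown because the shared seed defines the family and because several members differ by only a few bases, which bears on how well probes can tell them apart. They are RefSeq sequences (GRCh38.p14 table), matched for 7 of 7 members, and each equals the deposited target sequence of its probe. Capitals mark the seed.
miR-15a: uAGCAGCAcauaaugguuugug
miR-15b: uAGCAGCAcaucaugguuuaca
miR-16: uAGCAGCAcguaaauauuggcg
miR-195: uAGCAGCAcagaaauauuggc
miR-497: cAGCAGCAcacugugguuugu
miR-424: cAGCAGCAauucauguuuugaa
miR-503: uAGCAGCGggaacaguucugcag

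The first 6 of these sequences share the seed AGCAGCA, whose perfect match in a message reads UGCUGCU. miR-503 has the seed AGCAGCG, with the match CGCUGCU, so it shares the first 6 seed bases and differs at the last. Sequences were compared over the length of the shorter one, seed included. miR-16 and miR-195 differ at 2 of 21 positions (G10A and U11G, counted from the 5′ end, miR-16 base first). miR-15a and miR-15b differ at 4 of 22 (A12C, G20A, U21C and G22A, miR-15a base first), and miR-15a and miR-497 at 4 of 21. miR-503 differs from each of the other members at 9 to 11 positions. Its GC content of 56.5% is the highest of the 7, against 36.4% for miR-424, the lowest.

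In the RefSeq gene table the members form pairs of neighbouring genes. MIR15A and MIR16-1 lie 57 bases apart on chromosome 13 inside DLEU2, and MIR15B and MIR16-2 lie 59 bases apart on chromosome 3 inside SMC4. The mature miR-16 from both loci is identical, so its probe reads their sum. MIR497 and MIR195 are 209 bases apart on chromosome 17 inside MIR497HG, and MIR424 and MIR503 are 215 bases apart on the X chromosome, upstream of MIR542, MIR450A2, MIR450A1 and MIR450B.

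The assay counts fluorescent barcodes bound to each target without amplification. Lanes held between 32138 and 58298 counts over all miRNA probes. A lane's detection limit was the mean plus 2 SD of its 8 negative-control probes and ran from 11.0 to 24.5 counts. Values called normalized are counts scaled by TMM, which corrects each lane for its overall miRNA level. All 5 epithelial markers listed (the miR-200 family) were above the limit in every lane, as were 2 of 3 intestinal ones. Of 5 blood-cell markers on the panel 1 was above the limit in all lanes and 3 in none, and their summed normalized count was 87.5 to 102 in NT and 92.2 to 105 in shPLEKHA7 lanes. Of 7 markers of stroma, vessels and muscle 2 were above it in all lanes and 3 in none, with sums of 119 to 122 and 124 to 140. The numbers ending the deposited column names, if they are lane positions, put both NT lanes first, and effects of position and of group then cannot be told apart. In bulk RNA, a lower count from fewer cells expressing a miRNA and from less of it per cell cannot be told apart either.

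The family divided by level, although probes differ in efficiency, so the order of members need not be that of their molecules. miR-16, miR-15a and miR-15b were among the more abundant miRNAs of these cells and made up 98.0% to 98.9% of the counts of all 7 members. They stood 5th to 8th (miR-16), 10th or 11th (miR-15a) and 15th to 20th (miR-15b) of the 734 probes in the lanes. miR-503 and miR-424 lay around the detection limit, and miR-195 and miR-497 were under it in all 5 lanes. miR-503 was the member called higher in shPLEKHA7 cells, with NT counts under the detection limit. No member fell by the test: of 5 members tested, 1 was called higher and 0 lower by edgeR's quasi-likelihood test (Benjamini-Hochberg adjusted p under 0.05 over all probes tested), where 2.45% of the 204 probes tested were called higher and 3.92% lower. A probe was tested if above the limit in at least 2 lanes. miR-503 and miR-424 met that through shPLEKHA7 lanes alone, so the share of tested members called is no support for a family-wide change. The call for miR-503 rests on the same lanes that brought it into the test.

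**Figure D1:**
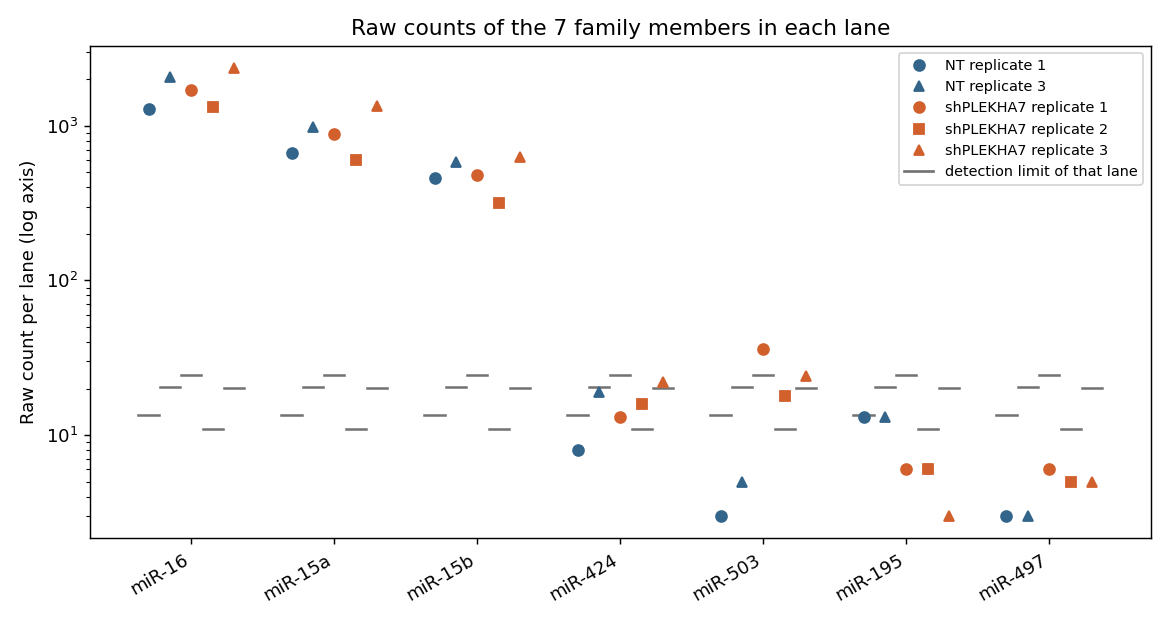
Raw counts (log axis) of the 7 members in each of the 5 lanes, with NT lanes in blue, shPLEKHA7 lanes in orange, marker shape for the replicate number and a grey bar at each lane's detection limit. miR-16, miR-15a and miR-15b lie far above the limits in every lane, miR-503 is above them in the 3 shPLEKHA7 lanes only, and miR-195 and miR-497 are below them throughout.

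miR-16 was the most counted member. The NT lanes (replicates 1 and 3, in this order throughout) gave raw counts of 1284 and 2062, and the shPLEKHA7 lanes (replicates 1, 2 and 3) gave 1697, 1315 and 2354. After normalization these were 1627 and 1938 against 1547, 1807 and 1780. The groups overlapped, with the highest and the second-lowest value both in NT. Group means were 1783 ± 220 (SD, n = 2) and 1711 ± 142 (SD, n = 3), and the log2 fold change was -0.06 (95% interval -0.37 to 0.25, edgeR adjusted p = 0.825). As a fold the interval ran from 0.774 to 1.19 times under this scaling. Spike-in scaling gave a log2 fold change of -0.40, outside that interval and not called either (edgeR adjusted p = 0.329). The median over all 204 tested probes was -0.27 under that scaling, against 0.06 under TMM. The share of miR-16 in all miRNA counts was 3.54% to 4.09% over the lanes.

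miR-15a, the partner of miR-16-1 in DLEU2, had raw counts of 670 and 977 in NT and 889, 600 and 1342 in shPLEKHA7 lanes. Normalized, it stood at 849 and 918 in NT, inside the range of 811, 824 and 1015 in the shPLEKHA7 lanes. The group means were 884 ± 48.9 (SD, n = 2) and 883 ± 114 (SD, n = 3). With a log2 fold change of 0.0004 (SE 0.14, 95% interval -0.32 to 0.32, edgeR adjusted p = 0.998), its sign was not resolved. shPLEKHA7 replicate 3 was the highest lane, and without it the value was -0.11.

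miR-15b, the partner of miR-16-2 in SMC4, was the abundant member whose groups stood apart. Its raw counts were 459 and 585 in NT and 478, 319 and 631 in shPLEKHA7 lanes. The normalized counts were 582 and 550 in NT and 436, 438 and 477 in shPLEKHA7 cells. Every shPLEKHA7 lane was below both NT lanes. Such separation is common in these data, however, since 48% of tested probes had normalized groups that did not overlap. The means were 566 ± 22.5 (SD, n = 2) and 450 ± 23.1 (SD, n = 3), with a log2 fold change of -0.33 (SE 0.12, 95% interval -0.61 to -0.05). miR-15b missed the threshold (unadjusted p = 0.0262, edgeR adjusted p = 0.140), and 48 of the 204 tested probes, or 23.5%, had an unadjusted p under 0.05. It was called in 0 of 13 other settings with all samples kept and 0 of 5 with a sample left out. Under spike-in scaling its log2 fold change was -0.66 (edgeR adjusted p = 0.0821), beside a median of -0.27 over all 204 tested probes.

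The 3 members above the limit in every lane thus had log2 fold changes of 0.0004, -0.06 and -0.33. Their median was -0.06, beside a median of 0.06 over all 204 tested probes. A separate fit of the 127 probes above the limit in all lanes, scaled on those probes alone, gave a median of 0.06. In that fit miR-15a, miR-16 and miR-15b were at 0.055, -0.0065 and -0.27. Summed over the 7 members the normalized count was 3093 and 3444 in NT, and 2850, 3131 and 3312 in shPLEKHA7 lanes. These sums overlapped, at 3268 ± 249 (SD, n = 2) and 3098 ± 233 (SD, n = 3). As a share of all miRNA counts the family took 6.98% (95% exact binomial interval 6.72% to 7.26%) and 7.27% (7.05% to 7.50%) of the NT lanes, and 6.51% (6.29% to 6.74%), 7.09% (6.81% to 7.38%) and 7.51% (7.30% to 7.73%) of the shPLEKHA7 lanes. Both the lowest and the highest share were shPLEKHA7 lanes. These intervals cover counting error only.

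Ratios between members within a lane do not depend on lane scaling. miR-15b was counted 0.685 and 0.599 times as often as miR-15a in the NT lanes, and 0.538, 0.532 and 0.470 times in the shPLEKHA7 lanes. All 3 shPLEKHA7 ratios were below both NT ratios, and the mean log2 ratio was lower by 0.32 (mean -0.64 in NT, -0.97 in shPLEKHA7 cells). For miR-15b to miR-16 the ratios were 0.357 and 0.284 in NT and 0.282, 0.243 and 0.268 in shPLEKHA7 cells, a log2 difference of -0.27 in which the closest lanes, NT replicate 3 and shPLEKHA7 replicate 1, almost met. Leaving out NT replicate 1 gave a difference of -0.11, and leaving out NT replicate 3 gave -0.44. For both ratios the 2-sided exact permutation p was 0.1, the smallest that 2 against 3 samples allow, and 0.15 after Benjamini-Hochberg adjustment over the 3 ratios. The miR-15a to miR-16 ratio was 0.522 and 0.474 in NT and 0.524, 0.456 and 0.570 in shPLEKHA7 cells, with overlapping groups (log2 difference 0.05, exact permutation p = 0.8). Its difference was -0.02 without NT replicate 3 and also without shPLEKHA7 replicate 3. Of all 8001 pairs among probes above the limit in every lane, 42% had ratios whose groups did not overlap, so 2 of 3 is not a result about the family.

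**Figure D2:**
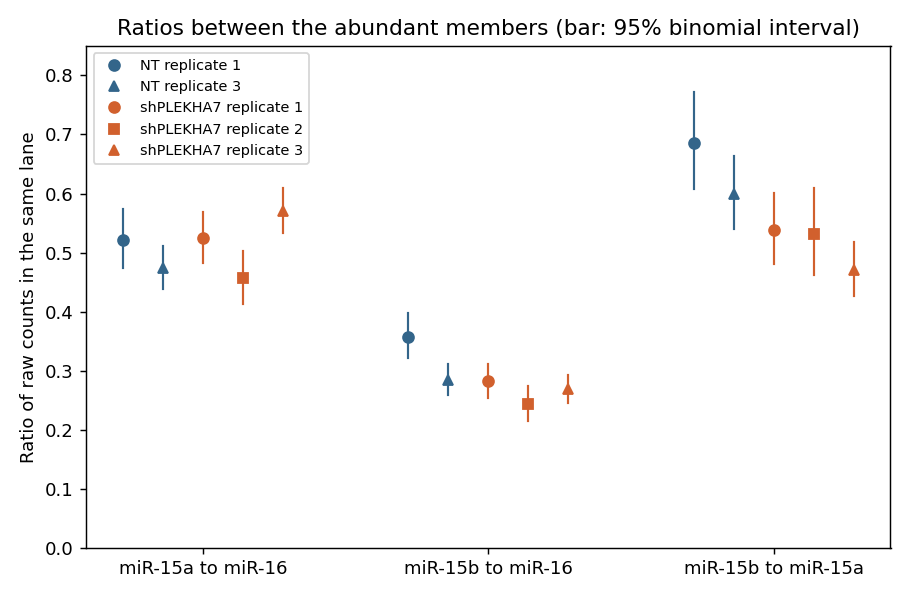
Ratio of raw counts of 2 members in the same lane (vertical axis, linear from 0) for the 5 lanes, with bars for the 95% exact binomial interval of counting error. The miR-15b to miR-15a ratio is 0.599 or more in NT lanes (blue) and 0.538 or less in shPLEKHA7 lanes (orange), while the miR-15a to miR-16 ratios overlap between groups.

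miR-503, the member with the divergent seed, was at 3 and 5 raw counts in the NT lanes (exact Poisson 95% intervals 0.62 to 8.77 and 1.62 to 11.7), below the mean of each lane's negative controls. In NT replicate 1, 6 of the 8 negative controls were at or above it, and in NT replicate 3, 3 of 8. In the shPLEKHA7 lanes it was at 36, 18 and 24 raw counts, above limits of 24.5, 11.0 and 20.2, and 0 of 8 negative controls reached it in any of them. In these 3 lanes it ranked 109th, 135th and 153rd of the 734 probes.

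Normalized, miR-503 stood at 3.80 and 4.70 in NT and at 32.8, 24.7 and 18.1 in shPLEKHA7 cells. All 3 shPLEKHA7 values were above both NT values, which are background counts. Means of 4.25 ± 0.63 (SD, n = 2) and 25.2 ± 7.35 (SD, n = 3) gave a log2 fold change of 2.50 (SE 0.48, 95% interval 1.41 to 3.59, edgeR adjusted p = 0.0211). As both NT values were below background, that fold is not a measured size, and miR-503 was tested only because of its shPLEKHA7 lanes. The shPLEKHA7 mean of miR-503 was 1.39 times the mean of the NT lanes' own normalized limits (17.0 and 19.4). This ratio of means leaves out counting error and is not a lower bound on the fold. In shPLEKHA7 replicate 3, miR-503 at 18.1 was between those limits. The mean negative-control count was 11.1 in shPLEKHA7 replicate 1, the highest of the 5 lanes, and 4.5 in shPLEKHA7 replicate 2, the lowest, and miR-503 was above the limit in both. Spike-in counts were higher in all 3 shPLEKHA7 lanes (10670 to 14239) than in NT (7686 and 10656), in replicate 2 by only a few counts, and after spike-in scaling the log2 fold change was 2.17 (adjusted p = 0.00139).

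Other settings with all samples kept refit the same lanes, so they are not independent support for miR-503. Each compared shPLEKHA7 counts with NT counts under the detection limit. The setting limited to probes above the limit in all lanes did not test miR-503. The call for miR-503 held in 12 of 12 other settings that tested it with all samples kept. Its adjusted p ran from 1.09e-05 (limma on deposited values, pseudocount of 1) to 0.0149 (edgeR, background subtracted). It was lost without NT replicate 1 (log2 2.38, edgeR adjusted p = 0.141) and without NT replicate 3 (2.72, adjusted p = 0.0644), where a lone NT lane is assumed to vary like the shPLEKHA7 lanes. It held without any single shPLEKHA7 lane. The size moved with the treatment of low counts, from 0.99 by limma with a pseudocount of 16 to 3.92 after background subtraction.

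miR-424, the neighbour of miR-503 with the common seed, had raw counts of 8 and 19 in NT and 13, 16 and 22 in shPLEKHA7 lanes. Only shPLEKHA7 replicates 2 and 3 exceeded their limits. Its normalized counts were 10.1 and 17.9 in NT and 11.9, 22.0 and 16.6 in shPLEKHA7 cells, so the groups overlapped. The log2 fold change was 0.18 (95% interval -0.76 to 1.12, edgeR adjusted p = 0.833), an interval that spans from 0.589 to 2.17 times. With a sample left out it was tested in 3 fits and ran from -0.13 (without NT replicate 1) to 0.72 (without NT replicate 3).

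A further 5 probes detect products of the same X-chromosome cluster, which RefSeq places in the order MIR424, MIR503, MIR542, MIR450A2, MIR450A1 and MIR450B. Of these 5, 3 were tested and 0 called. miR-542-3p, the highest of them in shPLEKHA7 cells, had raw counts of 22 and 38 in NT and 60, 33 and 52 in shPLEKHA7 lanes. Normalized counts were 27.9 and 35.7 against 54.7, 45.3 and 39.3, with the groups apart, at a log2 fold change of 0.52 (SE 0.23, 95% interval -0.003 to 1.05, edgeR adjusted p = 0.209). miR-450a was on the other side, at 31.7 and 34.8 in NT and 21.9, 23.4 and 28.7 in shPLEKHA7 cells (log2 -0.42, SE 0.23, edgeR adjusted p = 0.284). Its raw count of 24 in shPLEKHA7 replicate 1 was just under that lane's limit of 24.5. miR-450b-5p was at 30.4 and 28.2 against 32.8, 38.5 and 34.0 (log2 0.25, SE 0.21, edgeR adjusted p = 0.574). Groups did not overlap for any of these 3 probes, as for 48% of all tested probes, and the differences had both signs. The other arms were too low to test: miR-542-5p exceeded the limit in 1 lane (raw counts 10 to 15) and miR-450b-3p in none (4 to 11). With miR-424 and miR-503, which were tested only because of shPLEKHA7 lanes, 1 of 5 cluster products tested was called (miR-503), beside 2.45% of all tested probes called higher and 3.92% lower. Differences between the products were not tested.

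**Figure D3:**
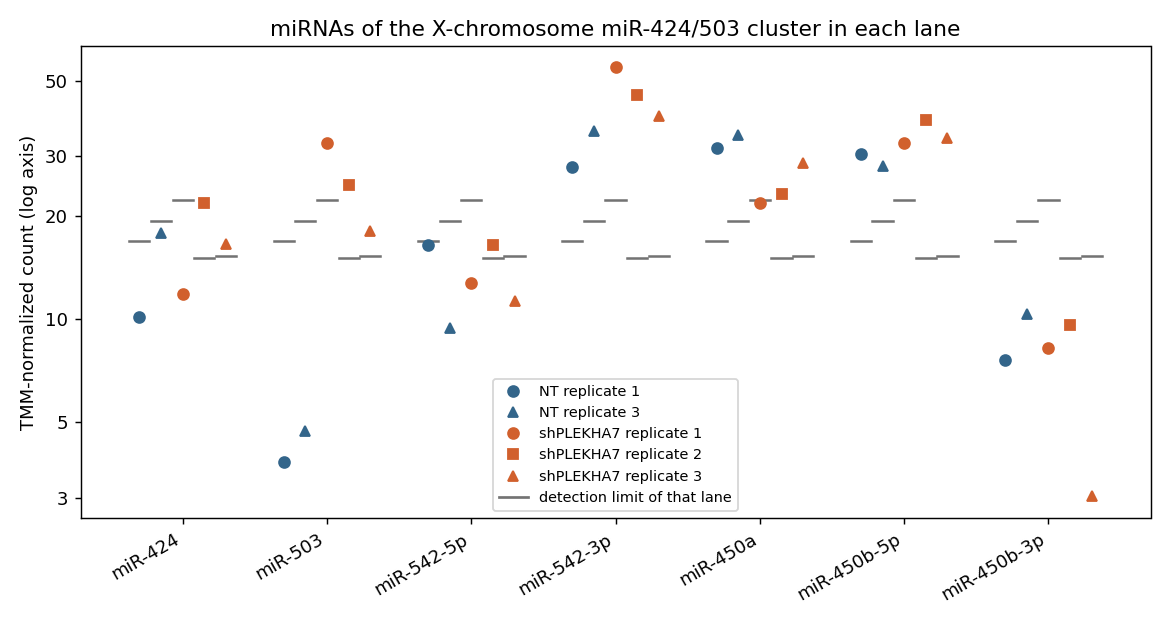
TMM-normalized counts (log axis) of the 7 probes for the X-chromosome cluster in each lane, NT in blue and shPLEKHA7 in orange, with a grey bar at each lane's normalized detection limit. miR-503 is below the limit in both NT lanes and above it in all 3 shPLEKHA7 lanes, miR-542-3p and miR-450b-5p are higher in each shPLEKHA7 lane than in either NT lane, and miR-450a is lower.

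miR-195 and miR-497, which share a host transcript, were under the limit in all lanes and were not tested. miR-195 had raw counts of 13 and 13 in NT and 6, 6 and 3 in shPLEKHA7 lanes. Both NT values were above all shPLEKHA7 values, yet each was below its limit (13.4 and 20.6), so neither group gives a level. miR-497 had raw counts of 3 and 3 in NT and 6, 5 and 5 in shPLEKHA7 lanes. Its raw groups did not overlap either, in the other direction, and between 4 and 6 of the 8 negative controls were at or above it in every lane. Normalized counts of miR-497 overlapped between groups.

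miR-195 is nearly identical to miR-16, so its probe may also capture miR-16. The count on the miR-195 probe was no more than 1.01% of that on the miR-16 probe in any lane. As it was under the detection limit throughout, this share includes background and does not measure how much miR-16 was captured. Cross-reaction between miR-15a and miR-15b was not tested.

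The panel held 8 human probes with AGCAGC at bases 2 to 7, the 7 members and miR-646, and 0 probes for the opposite arm of a member. miR-646 was under the limit in all lanes (raw counts 3 to 12). miR-103 and miR-107 carry the family's seed letters shifted by 1 base, so that they start the molecule. They are shown with those letters in capitals.
miR-103: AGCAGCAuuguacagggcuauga
miR-107: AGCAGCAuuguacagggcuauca

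miR-103, a miRNA transcribed from introns of PANK genes, was at 807 and 799 normalized counts in NT and 659, 687 and 609 in shPLEKHA7 cells. Its groups stood apart, as did those of 48% of all tested probes. The log2 fold change was -0.30 (SE 0.12, 95% interval -0.58 to -0.03, edgeR adjusted p = 0.162). That value lies beside the -0.33 of miR-15b, and neither was called. miR-107 was at 65.9 and 66.7 against 62.0, 52.2 and 59.0, with groups that did not overlap either (log2 -0.19, SE 0.17, edgeR adjusted p = 0.575). Of the 3 relatives 2 were tested and 0 called, beside 2.45% of all tested probes called higher and 3.92% lower.

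**Figure D4:**
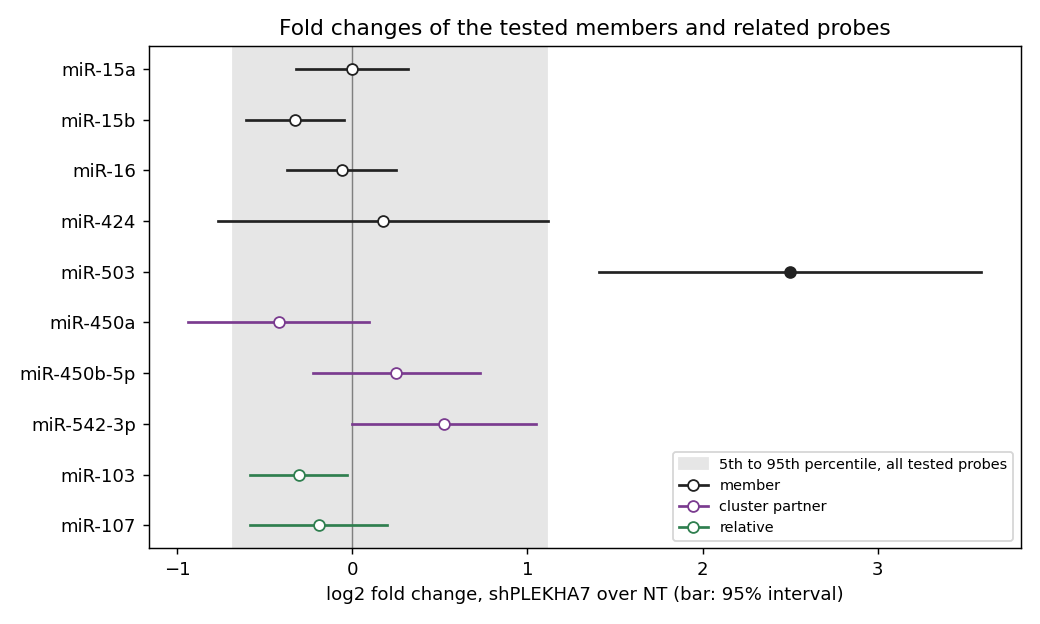
Log2 fold change (shPLEKHA7 over NT) with its 95% interval for the 5 tested members (black), 3 tested probes of the X-chromosome cluster (purple) and 2 tested relatives (green). The filled point, miR-503 at 2.50, is the only one called, and the others lie within the grey band of -0.68 to 1.11 that holds the 5th to 95th percentile of all tested probes.

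The probes most like each tested member across the 5 lanes were found by the root-mean-square difference of centred log2 normalized counts, as a description. miR-26a (0.033) followed miR-16 most closely, and miR-106b (0.039) followed miR-15a. miR-221 (0.072) was nearest to miR-15b and miR-425 (0.17) to miR-424. For miR-503 the nearest were miR-744 (0.41), miR-1285 (0.52) and miR-320a (0.54). Raw counts of these 3 in the NT lanes were 4 and 7, 3 and 7, and 2 and 11, below the limits as for miR-503. In shPLEKHA7 lanes they ran from 10 to 30. In shPLEKHA7 replicate 3, miR-744 (16) and miR-1285 (10) were below the limit of 20.2. Counting error enlarges the difference at such low counts, so its size cannot be set against that of the abundant members.

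**Figure D5:**
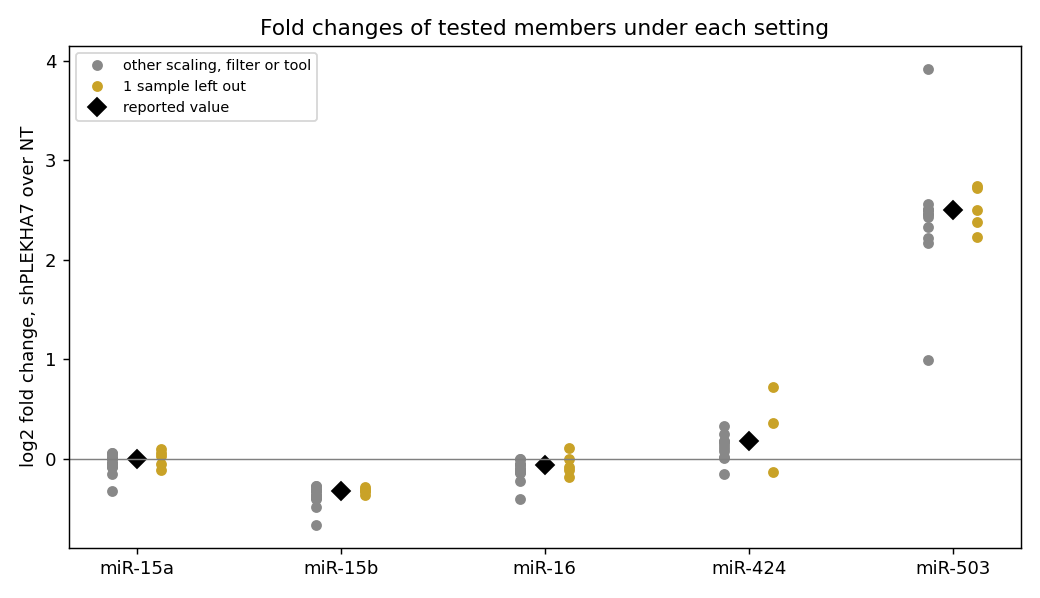
Log2 fold change of each tested member as reported (black diamond), under other scalings, filters or tools (grey) and with 1 sample left out (yellow). miR-503 stays between 0.99 and 3.92 and miR-15b between -0.66 and -0.27, whereas miR-15a, miR-16 and miR-424 scatter on both sides of 0.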

How the data were processed

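The authors deposited raw nCounter counts per probe and lane, per the file headers. A second deposited table holds normalized signal values: 100% of its human values equalled the raw count times 1 factor per lane (within 0.02), and these factors equalised the housekeeping mRNAs. Another 10 derived columns were not used. The software that made both tables is not given in the sources used here. Raw counts of the miRNA probes were fitted with edgeR 4.0.16 (R 4.3.3), quasi-likelihood test, TMM scaling, group as the only term, for 204 probes above the mean plus 2 SD of the negative controls in at least 2 lanes. Each SE was derived from the test's F statistic. Alternatives used limma 3.58.1, DESeq2 1.42.0 (independent filtering off) and other scalings and filters. The edgeR fit was tried on counts simulated for the probes tested, without a separate background. Such counts differ from those of miR-503 in NT, so that trial does not bear on its call. The named probes were all 7 members, their cluster partners and seed relatives, and the 3 probes nearest each tested member in pattern, of which the nearest are given. Members and lists were chosen with earlier results of these data known. P-values measure the spread between these samples, as the labels do not say which infection each came from. Replicate numbers were not taken as pairs. As no build is named, RefSeq tables (GRCh38.p14) served for names, sequences and neighbouring genes only.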

Additional observations from a re-analysis of the deposited data

How the results depend on the processing

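Over all probes edgeR called 5 higher and 8 lower. Higher calls numbered 11 under total-count scaling, 2 by DESeq2, 1 by limma with a pseudocount of 16, 1 without a filter, 2 among probes above the limit in all lanes and 8 at an adjusted p under 0.1. Lower calls were 2 under housekeeping scaling, 29 under spike-in scaling, 2 and 3 by limma with pseudocounts of 1 and 16, and 13 at an adjusted p under 0.1. Leaving out 1 sample gave 0 to 9 higher and 0 to 11 lower, with 0 higher without either NT lane (38 and 34 probes with an unadjusted p under 0.05). A fit with a replicate block called 10 higher and 12 lower, miR-503 among them at log2 2.46 (edgeR adjusted p = 0.00284), and no other member. In that fit shPLEKHA7 replicate 2 has no NT lane of its number, so it adds nothing to the group difference. Deviations from group means correlated at 0.03 and 0.15 between same-numbered samples, and from -0.15 to 0.14 between differently numbered ones. With 2 NT lanes their deviations mirror each other, so these values cannot decide whether the numbers mark pairs.

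miR-15a was negative under DESeq2 scaling (-0.039), housekeeping (-0.055) and spike-in scaling (-0.33), by DESeq2 (-0.039) and limma (-0.084 and -0.083), and without a filter (-0.15). Dropping single samples moved it between -0.11 and 0.10. miR-16 turned to 0.00072 under total counts and was -0.40 under spike-in scaling, and dropping single samples moved it between -0.18 and 0.11 (0.0013 without shPLEKHA7 replicate 1). Under spike-in scaling miR-424 turned to -0.15 and miR-450b-5p to -0.081, while the median over all tested probes went from 0.06 to -0.27. Dropping single samples moved miR-424 between -0.13 (without NT replicate 1) and 0.72. The difference of the 7-member sum, -171 normalized counts, became -946 under spike-in scaling and lay between -347 and 5.07 when single samples were dropped. The miR-15a to miR-16 difference ran from -0.024 to 0.14. The ratio of miR-15b to miR-15a kept its sign in all 6 alternatives (-0.42 to -0.23). Another scaling changes all probes of a lane by the same factor, so such shifts are not particular to these members. What made the lane factors differ and what caused the other shifts were not tested. Members near 20 counts are limited by the background, and 2 NT samples limit all intervals.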
